A study of Mus musculus with 21 samples.

Results

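Aquaporins are channel proteins that let water, and in some members glycerol, urea or hydrogen peroxide, cross cell membranes along their gradients. They do not pump, so the direction of flow is set by salt transport and by the solutes on either side. In male accessory glands and ducts they are known for their part in forming and concentrating the fluid of the ejaculate. Aqp1, Aqp2, Aqp4, Aqp5 and Aqp8 are known mainly as water channels, Aqp3, Aqp7 and Aqp9 also carry glycerol, and Aqp11 lies on intracellular membranes. Transcript levels of these 9 genes were followed here in the prostate of male mice that had been castrated, given the soy isoflavone genistein, or given estradiol. The genes were found by their symbols in the platform's annotation, which gave 9 of the 19057 genes on the array and 19 of its 45259 probes. Aqp8 heads the set because it was chosen by its signal on the same arrays, where an earlier analysis found it raised by genistein in intact males, so its values in that comparison, and in any comparison that shares those arrays, are given as a description without a test.

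All 21 arrays came from heterozygous FVB/N males aged 8 to 12 weeks of an androgen reporter line, whose genome carries luciferase behind a thymidine kinase promoter joined to androgen response elements (Slp-HRE2). The genistein experiment crossed castration with treatment, with 3 arrays in each of its 4 groups: castrated or intact, vehicle or genistein. Each male received a daily injection under the skin of 300 µg genistein, which is 10 µg for each gram of body weight, for 5 days in 0.1 ml mineral oil with 2% dimethylsulfoxide, or that vehicle alone, and in castrated males the injections began 4 days after surgery. The estradiol experiment used intact males only, 5 arrays for vehicle and 4 for a daily injection of 0.25 µg estradiol (10 µg for each kilogram) over 4 days in 0.1 ml mineral oil with 0.5% ethanol. Tissue was harvested 24 hours later than the final dose. The labels do not say which lobes were taken or whether an array holds 1 animal or a pool, so p-values speak only to the spread among the arrays, part of which may be technical.

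Illumina bead arrays carry each probe on a set of beads and report the mean brightness of the set. Values below are normalized signals on a log2 scale, on which 1 unit is a doubling. The 2 experiments were normalized separately, so levels are compared within an experiment unless stated otherwise. Between 42.3% and 47.0% of probes were detected per array, and the median intensity per array was 99.4 to 109 in the first experiment and 145 to 171.9 in the second. The castrated arrays lie on 1 chip and the intact arrays of the genistein experiment on another, and the effects of castration and of chip cannot be told apart, while the genistein comparisons are made within a chip. Transcripts of prostate secretory proteins, which mark the gland, were present in all groups: their summed signal over 8 tested genes was 17.21 to 17.36 in intact and 14.25 to 15.01 in castrated males, and 16.89 to 17.23 in the estradiol experiment. Castrated genistein arrays 1 and 3 stood apart in seminal vesicle transcripts, with a summed signal of 12.11 and 10.15 against 15.76 to 16.75 on the other 10 arrays of that experiment. Vehicle array 1 of the estradiol experiment had the lowest mean correlation with its own group, 0.956 against 0.973 to 0.98 for the other 4. For castration among males given genistein, the aquaporins and gene lists are also given without castrated genistein arrays 1 and 3, and the estradiol difference of Aqp8 is given without that vehicle array. Leaving out both castrated genistein arrays leaves 1 array in the group, assumed to vary like the others, and the share of all genes called then fell to 2.21% higher and 3.23% lower.

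All 9 genes were detected on enough arrays to be tested in both experiments. Of the 19 probes, 16 were kept for genistein and 15 for estradiol, a probe being kept when its detection p-value was under 0.05 on at least 3 arrays. The 3 probes kept in neither were the second probes of Aqp4, Aqp9 and Aqp11, of which the Aqp9 probe was detected on 2 of 9 arrays of the estradiol experiment and the other two on none. The remaining family members on the platform, Aqp6, Aqp12 and the lens channel Mip, passed in neither experiment. Each gene is represented below by its brightest kept probe.

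The sequences upstream of 3 genes are shown because the series concerns androgen receptor signalling and because Aqp8 is the gene the set was built on, while Aqp2 and Aqp9 were high together on some intact arrays and low on others. They are the 250 bases before each RefSeq start site (GRCm38.p6), printed 5′ to 3′ along the gene, with capitals marking half-sites of the androgen receptor (TGTTCT, or AGAACA on the opposite strand) or the estrogen receptor (GGTCA, or TGACC on the opposite strand). Aqp8 lies at chr7:123462044-123462293 on the plus strand, Aqp2 at chr15:99578806-99579055 on the plus strand, and Aqp9 has start site 1 at chr9:71162634-71162883 and start site 2 at chr9:71163290-71163539, both on the minus strand.
Aqp8: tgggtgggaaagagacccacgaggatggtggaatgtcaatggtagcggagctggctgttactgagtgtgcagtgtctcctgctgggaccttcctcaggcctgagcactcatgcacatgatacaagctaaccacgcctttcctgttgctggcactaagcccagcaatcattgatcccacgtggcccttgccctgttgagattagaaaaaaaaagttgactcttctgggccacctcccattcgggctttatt
Aqp2: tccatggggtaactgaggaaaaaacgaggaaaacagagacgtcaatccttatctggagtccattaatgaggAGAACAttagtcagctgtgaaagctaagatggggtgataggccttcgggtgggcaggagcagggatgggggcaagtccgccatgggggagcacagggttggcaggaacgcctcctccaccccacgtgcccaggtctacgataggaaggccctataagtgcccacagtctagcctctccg
Aqp9, start site 1: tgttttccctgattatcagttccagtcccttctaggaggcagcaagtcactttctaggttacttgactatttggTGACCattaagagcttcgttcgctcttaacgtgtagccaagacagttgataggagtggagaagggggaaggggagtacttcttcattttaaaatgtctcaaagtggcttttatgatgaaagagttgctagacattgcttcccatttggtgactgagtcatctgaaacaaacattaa
Aqp9, start site 2: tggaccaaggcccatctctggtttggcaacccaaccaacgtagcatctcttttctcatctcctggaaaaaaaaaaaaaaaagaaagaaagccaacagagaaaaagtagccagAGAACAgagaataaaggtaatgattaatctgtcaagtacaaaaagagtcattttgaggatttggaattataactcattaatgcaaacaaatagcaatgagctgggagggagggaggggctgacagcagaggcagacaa
The Aqp8 window held none of these letters. The Aqp2 window held 1 androgen receptor half-site, 179 bases before the start. Aqp9 held 1 estrogen receptor half-site 176 bases before start site 1 and 1 androgen receptor half-site 138 bases before start site 2. Over 32851 mouse promoters of the same length, 16.1% held the androgen half-site and 35.2% the estrogen half-site, so single matches are common. Full palindromes of either receptor (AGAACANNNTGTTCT and GGTCANNNTGACC) were in none of the windows printed. The table used held a promoter for 8 of the 9 genes, Aqp4 being named only.

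Aqp8, a water channel that also passes hydrogen peroxide and ammonia and is known from the pancreas, colon and testis, was measured by both of its probes. With the brighter probe (ILMN_2756379), intact males given genistein read 7.54, 7.82 and 7.04, and intact males given vehicle read 5.70, 5.85 and 5.77. Castrated males read 4.67, 4.98 and 5.21 with vehicle and 5.43, 4.91 and 5.26 with genistein. The 3 intact genistein arrays stood above every other array of the experiment, and the intact vehicle arrays stood above every castrated array. In unprocessed intensity the intact genistein arrays were at 257.6, 308.5 and 242, and the intact vehicle arrays at 126.5, 128 and 129.3, beside array medians near 100 in this experiment (99.4 to 109), so the vehicle level was dim.

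The difference between genistein and vehicle in intact males was 1.69 log2 units (SE 0.21), or 3.23-fold, which is the value that placed the gene in this set. The second Aqp8 probe (ILMN_2854157) read 7.54, 7.44 and 6.70 with genistein and 5.54, 4.85 and 5.19 with vehicle in intact males, a difference of 2.03 (SE 0.27). Both probes read the same RNA, so they are no independent measurements of the animals. In castrated males the second probe read 4.73, 4.36 and 4.69 with vehicle, where no array detected it, and 5.40, 4.47 and 4.96 with genistein. Its groups in castrated males overlapped, as did those of the brighter probe.

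**Figure D1:**
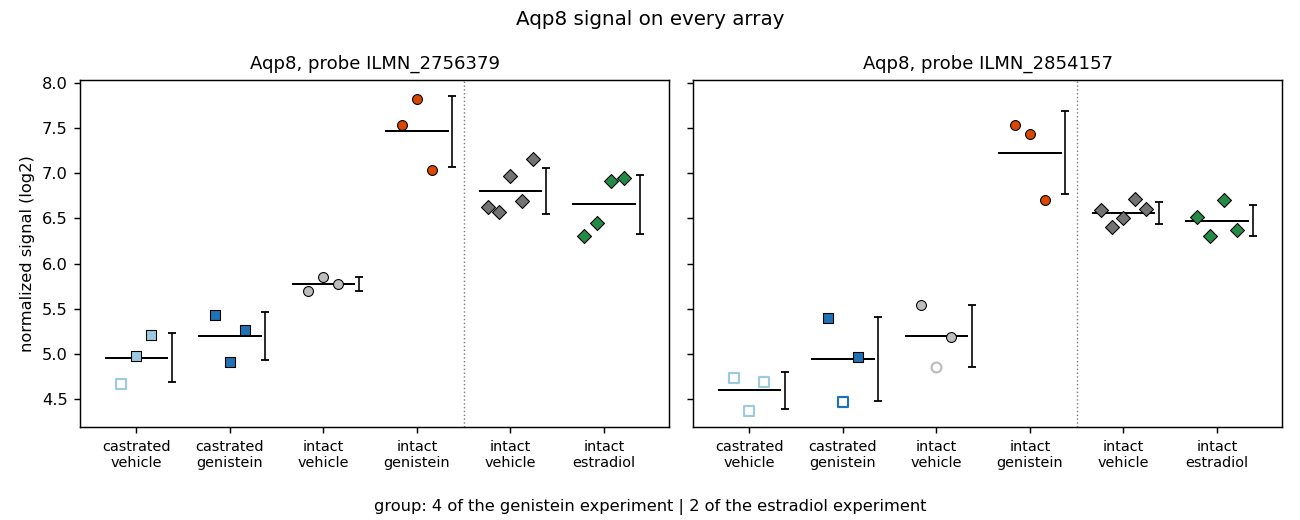
Normalized signal (log2, vertical axis) of both Aqp8 probes on each array, by group (horizontal axis), with the group mean (line) and SD (bar); open symbols are arrays on which the probe was not detected, and the dotted line parts the 2 experiments, which were normalized separately. With the brighter probe the 3 intact genistein arrays lie between 7.04 and 7.82 and the intact vehicle arrays of the same experiment between 5.70 and 5.85.

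Genistein given to castrated males left no detectable difference in Aqp8. The mean of castrated arrays was 4.95 ± 0.27 (SD, n = 3) after vehicle and 5.20 ± 0.27 (SD, n = 3) after genistein, a difference of 0.25 log2 units (SE 0.21, 95% interval -0.20 to 0.70, limma adjusted p = 0.763). The response in intact males exceeded that in castrated males by 1.45 (SE 0.29) with the brighter probe, given only as a description because it contains the comparison that chose the gene. No such value is given for the second probe, which no castrated vehicle array detected. Without castrated genistein arrays 1 and 3 the difference in castrated males was -0.05 (adjusted p = 1).

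Castrated males had less Aqp8 signal than intact males with either injection. With the brighter probe the difference was -0.82 (SE 0.21), or 1.76-fold lower, with vehicle and -2.27 (SE 0.21), or 4.81-fold lower, with genistein, both as descriptions because they share arrays with the comparison above. With the second probe, which no castrated vehicle array detected, only a bound of at least 1.24-fold can be given with vehicle. Its difference with genistein was -2.285 (SE 0.27). Castration and chip coincide in all of these values. In whole tissue, fewer cells of a type and less RNA per cell cannot be told apart.

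Estradiol, the steroid ligand of the estrogen receptors that genistein also binds, did not give a detectable change of Aqp8 in intact males. Vehicle arrays read 6.63, 6.57, 6.97, 6.69 and 7.16, and estradiol arrays read 6.30, 6.45, 6.92 and 6.95. The groups overlapped, and the difference was -0.15 log2 units (SE 0.18, 95% interval -0.55 to 0.26, limma adjusted p = 0.907). The second probe differed by -0.09 (SE 0.13). Without vehicle array 1 the difference was -0.19 (adjusted p = 0.702), and within the chip that holds all 4 estradiol arrays it was 0.06 (adjusted p = 0.946). Treatment lasted 4 days for estradiol and 5 for genistein, in mineral oil with different solvents and at different doses, so the 2 treatments are set side by side without a test of their difference.

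When all 21 arrays were normalized together, a choice made after seeing the data, Aqp8 averaged 5.13 ± 0.31 (SD, n = 3) in castrated vehicle, 5.41 ± 0.30 (n = 3) in castrated genistein, 6.03 ± 0.08 (n = 3) in intact vehicle of the genistein experiment, 6.36 ± 0.32 (n = 4) in intact estradiol, 6.51 ± 0.25 (n = 5) in intact vehicle of the estradiol experiment and 7.75 ± 0.39 (n = 3) in intact genistein. These are levels of the brighter probe. Its neighbours in that order overlapped except between castrated genistein and intact vehicle (highest 5.67, lowest 5.95) and between the vehicle arrays of the estradiol experiment and intact genistein (highest 6.86, lowest 7.32). The second probe gave the same order of means, but there castrated genistein (4.56 to 5.63) overlapped intact vehicle (5.01 to 5.78), and intact vehicle lay below intact estradiol (6.03 to 6.41). Experiment and chip cannot be told apart in this order.

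The genes most like Aqp8 over the 12 arrays of the genistein experiment were Gm8615 (Pearson r 0.929), the RNA exosome cofactor Mphosph6 (0.914), the calcium-binding copine Cpne6 (0.911), the small GTPase Rab10 (0.910) and the phospholipid acyltransferase Lpcat4 (0.906). These arrays share 4 group levels, and with group means removed r fell to between 0.159 and 0.629. Over the 9 arrays of the estradiol experiment r was negative for 4 of the 5, from -0.593 for Gm8615 to -0.207 for Lpcat4, and 0.487 for Rab10. Aqp8 itself spanned only 6.30 to 7.16 on those 9 arrays, so these coefficients do not settle whether the likeness holds there.

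**Figure D2:**
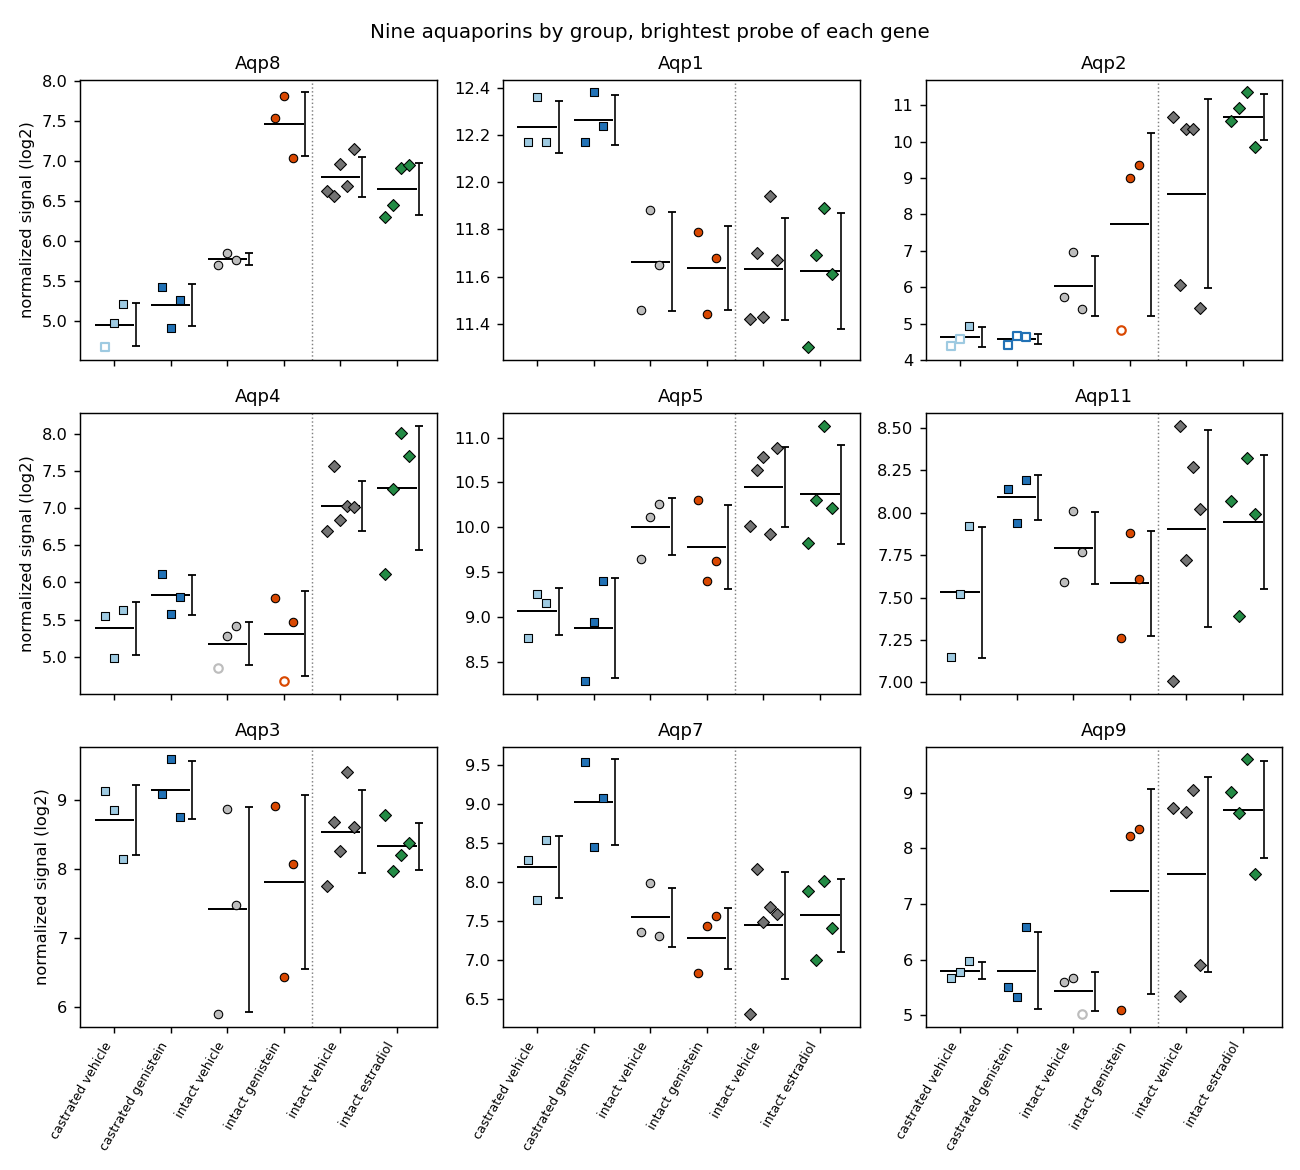
Normalized signal (log2, vertical axes) of the brightest kept probe of each of 9 aquaporins on every array, by group, with group mean (line) and SD (bar); open symbols are arrays on which the probe was not detected, and the dotted line parts the separately normalized experiments. Aqp1 lies higher and Aqp5 lower in castrated males, and Aqp2 and Aqp9 are high on some intact arrays and low on others of the same group.

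Castration with vehicle changed 2 of the 8 other aquaporins at a limma adjusted p under 0.05, 1 upward and 1 downward, beside 21.2% of all 15406 genes tested (11.1% higher and 10.0% lower). At an unadjusted p under 0.05 the same number of 2 passed, beside 34.7% of all genes, and groups did not overlap for 3 of the 8, beside 39.5%. Among males given genistein, castration changed 4 of the 8, 2 in each direction, beside 22.1% of all genes (11.2% higher and 10.9% lower), with 5 at an unadjusted p under 0.05, beside 35.1%, and 4 of the 8 without overlap, beside 38.4%. The share with vehicle is near that of all genes, and over 8 genes nothing particular to aquaporins is read from either count. Aqp2, 1 of the 4, met the detection filter through its intact arrays. Castration and chip coincide in these counts and in every castration difference given below.

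Aqp1, the water channel of capillary endothelium, red cells and kidney tubule, rose after castration. It read 12.17, 12.36 and 12.17 in castrated and 11.46, 11.88 and 11.65 in intact vehicle males, and 12.17, 12.38 and 12.24 in castrated and 11.79, 11.44 and 11.68 in intact genistein males. Every castrated array stood above every intact array of the experiment. The difference was 0.57 (SE 0.14, adjusted p = 0.0133), or 1.48-fold, with vehicle and 0.63 (SE 0.14, adjusted p = 0.00789), or 1.54-fold, with genistein. Its other two probes gave 0.66 (adjusted p = 0.0468 over all kept probes) and 0.73 (adjusted p = 0.0176) with vehicle, and 0.50 (adjusted p = 0.114) and 0.68 (adjusted p = 0.0236) with genistein. Without castrated vehicle array 2 the call with vehicle missed the threshold, at 0.51 and an adjusted p of 0.052, and the call with genistein missed it without castrated genistein arrays 1 and 3 (0.74, adjusted p = 0.0729) and without intact genistein arrays 2 and 3 (0.47, adjusted p = 0.148).

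Of 9 tested endothelial markers, 3 rose after castration with vehicle and 0 fell (median 0.64), beside 11.1% of all genes higher and 10.0% lower, namely the tight-junction gene Cldn5 by 1.28, Pecam1 by 0.82 and the adhesion molecule Esam by 0.82, and 2 rose with genistein (median 0.45), beside 11.2% of all genes, Cldn5 by 1.23 and Esam by 0.73. With castrated genistein arrays 1 and 3 left out, the median was 0.32. The summed signal of the list was 12.79 to 13.15 in castrated vehicle, 13.07 to 13.09 in castrated genistein, 11.79 to 12.58 in intact vehicle and 12.14 to 12.71 in intact genistein males. Kdr, the VEGF receptor of endothelium, was not kept by the filter. Of the 3 red blood cell transcripts tested, 0 passed in either castration comparison (medians 0.03 and -0.31), beside 21.2% and 22.1% of all genes. Macrophage markers were higher, 6 of 6 with vehicle (median 1.14), beside 11.1% of all genes, and 4 of 6 with genistein (median 0.99), beside 11.2%. Without castrated genistein arrays 1 and 3 their median was 1.15. The part of these cell types in the Aqp1 result was not tested. The genes most like Aqp1 over the 12 arrays were the Notch coactivator Maml2 (r 0.980), the microfibril gene Mfap2 (0.971) and the scavenger receptor gene Scara3 (0.967). With group means removed r was between 0.819 and 0.934 on these arrays, which also chose the genes. Over the 9 arrays of the estradiol experiment it was 0.754, 0.593 and 0.738.

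Aqp5, the apical water channel of salivary, lacrimal and airway glands, fell after castration. It read 8.77, 9.26 and 9.16 in castrated and 9.65, 10.11 and 10.26 in intact vehicle males, a fall of 0.94 (SE 0.30, adjusted p = 0.041), or 1.92-fold. With genistein it read 8.29, 8.95 and 9.40 in castrated and 10.30, 9.40 and 9.63 in intact males, a fall of 0.90 (SE 0.30, adjusted p = 0.0484), and here 1 castrated array overlapped the intact range. The gene has a single probe. Both calls lie at the threshold: the call with vehicle was lost without castrated vehicle array 1, 2 or 3 or intact vehicle array 2 or 3 (adjusted p 0.0619 to 0.144), and the call with genistein was lost without castrated genistein array 1 or 2 or intact genistein array 1 or 3 (adjusted p 0.0685 to 0.179). The difference was -0.83 (adjusted p = 0.211) without castrated genistein arrays 1 and 3 together.

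Aqp5 was most like the transcription factor Sox9 (r 0.956 over 12 arrays), the tight-junction gene Cldn10 (0.944) and the ciliary radial spoke gene Rsph9 (0.927). With group means removed r was 0.908, 0.903 and 0.852, and over the 9 arrays of the estradiol experiment it was 0.622, 0.922 and 0.145. Of the 7 tested markers of luminal epithelium, the secretory cell layer of the gland, 1 rose and 3 fell with vehicle (median -0.32), beside 11.1% and 10.0% of all genes, while all 8 tested prostate secretory transcripts fell (median -3.96). Their part in the Aqp5 result was not tested. Aqp5 and Aqp2 are next to each other in the genome with 0 protein-coding genes between them, and their patterns across arrays differed.

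Aqp7, the glycerol channel of adipocytes, rose after castration among males given genistein. It read 9.54, 8.45 and 9.08 in castrated and 6.83, 7.43 and 7.56 in intact genistein males, and 8.28, 7.76 and 8.54 in castrated and 7.35, 7.98 and 7.30 in intact vehicle males. The groups did not overlap with genistein and overlapped with vehicle. The difference was 1.75 (SE 0.30, adjusted p = 0.00222), or 3.37-fold, with genistein and 0.65 (SE 0.30, adjusted p = 0.155) with vehicle, and the difference between these 2 values was not called (-1.10 as genistein response in intact minus castrated males, SE 0.43, adjusted p = 0.631). Of its other three probes, ILMN_2943165 rose by 1.53 and ILMN_1223330 by 1.73 with genistein, with adjusted p of 0.00982 and 0.0011 over all kept probes. ILMN_2607964 was detected on 0 of 6 intact arrays, so only a bound can be given, at least 1.71-fold higher in castrated males (mean signals 5.75 and 4.52). This probe was kept only through castrated arrays, detected on 2 of 3 with vehicle and 3 of 3 with genistein, so no p-value is given for it. Without castrated genistein arrays 1 and 3 the difference was 1.18 and missed the threshold (adjusted p = 0.105).

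Of 8 tested adipocyte markers, 5 rose after castration with genistein (median 1.16), beside 11.2% of all genes, among them Plin1, the coat protein of lipid droplets, by 1.45, the nuclear receptor Pparg by 1.37 and the hormone gene Adipoq by 1.34, while with vehicle 0 passed (median 0.39). The summed adipocyte signal was 14.92 to 15.41 in castrated genistein, 14.43 to 14.91 in castrated vehicle, 13.66 to 14.40 in intact vehicle and 13.36 to 14.45 in intact genistein males. Fabp4 was not kept by the filter in either experiment. Glycerol and lipid droplet genes gave 5 of 8 higher with genistein (median 1.19), led by the glycerol phosphate dehydrogenases Gpd1 (1.63) and Gpd2 (1.40), beside the same 11.2%, and 1 of 8 with vehicle (Gpd2, 0.99), beside 11.1%. Without castrated genistein arrays 1 and 3, which leaves 1 array in the group, the medians were 0.83 for adipocyte markers and 0.76 for glycerol genes. The part of fat tissue in the Aqp7 result was not tested.

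The genes most like Aqp7 were the hormone-sensitive lipase Lipe (r 0.985 over 12 arrays), the lysosome fusion gene Plekhm1 (0.982) and the triglyceride lipase Pnpla2 (0.978). With group means removed r was 0.912 to 0.982, and over the 9 arrays of the estradiol experiment it was 0.802 to 0.811. Aqp7 and Aqp3 adjoin in the genome with 0 protein-coding genes between them. Aqp3 did not pass in any comparison.

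Aqp3, a water and glycerol channel of skin, kidney and bladder epithelium, varied widely within the groups of intact males. It read 5.89, 8.87 and 7.47 in intact vehicle and 8.91, 6.43 and 8.07 in intact genistein males, against 9.13, 8.86 and 8.14 in castrated vehicle and 9.09, 9.59 and 8.75 in castrated genistein males. Intact vehicle array 1 and intact genistein array 2 were low, and the groups overlapped. The castration difference was 1.30 (SE 0.70, adjusted p = 0.212) with vehicle and 1.34 (SE 0.70, adjusted p = 0.194) with genistein. The mean signal of the 6 urothelial markers was also lowest on those arrays, at 7.99 and 8.30 against 8.39 to 10.08 on the other arrays of that experiment. The same 2 arrays were lowest in the mean of endothelial markers (8.42 and 8.76, the next at 8.99), neutrophil markers (6.88 and 6.87, the next at 7.70) and macrophage markers (8.04 and 7.98, the next at 8.11). Of the urothelial markers 2 rose and 1 fell after castration with vehicle (median 0.77), beside 11.1% and 10.0% of all genes, and 3 rose and 1 fell with genistein (median 1.24), beside 11.2% and 10.9%, with the uroplakins Upk3b and Upk1b higher by 1.24 and 0.85 with vehicle and Upk1a lower in both. Without castrated genistein arrays 1 and 3 the median was 1.53. The summed urothelial signal was 12.23 to 12.80 in castrated vehicle, 12.83 to 13.26 in castrated genistein, 11.82 to 12.66 in intact vehicle and 12.18 to 12.69 in intact genistein males. The part of urothelium in the Aqp3 values was not tested.

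Aqp2, the vasopressin-regulated water channel of the kidney collecting duct, also known from the vas deferens of the rat, was at the detection limit in castrated males and very uneven in intact males. It read 4.38, 4.58 and 4.94 in castrated vehicle and 4.41, 4.66 and 4.64 in castrated genistein males, where 1 and 0 of 3 arrays detected it. Intact vehicle males read 5.73, 6.96 and 5.40, and intact genistein males read 4.82, 9.01 and 9.35. Intact genistein arrays 2 and 3 were thus high, and on array 1 of the same group Aqp2 was not detected. The castration difference among males given genistein was -3.16 (SE 0.90, 95% interval -5.13 to -1.19, limma adjusted p = 0.0267). Taken at the lowest detected signal, the castrated genistein arrays were 7.23-fold below the intact genistein mean, which keeps undetected array 1 at 4.82. The probe met the detection filter through intact arrays, where 3 of 3 with vehicle and 2 of 3 with genistein detected it. Its p-value is therefore no independent support for a fall. The castration difference with vehicle was -1.40 (SE 0.90, adjusted p = 0.301), although those groups did not overlap with this probe.

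The Aqp2 call rested on single arrays. Without intact genistein array 1, which did not detect it, the castration difference with genistein was larger, at -4.61. Without intact genistein arrays 2 and 3 the difference was -0.25 (adjusted p = 0.787), and without any 1 castrated genistein array, or without intact genistein array 2 or 3, it missed the threshold (adjusted p 0.0596 to 0.105). It was -3.07 without castrated genistein arrays 1 and 3 together (adjusted p = 0.236). The second Aqp2 probe showed the same arrays, at 4.63, 8.28 and 8.49 in intact genistein males, and differed by -2.42 (SE 0.79, adjusted p = 0.0478 over all kept probes). With vehicle the second probe differed by only -0.20 (SE 0.79, adjusted p = 0.889), and its groups overlapped in both castration comparisons.

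Aqp9, a glycerol and urea channel known from liver and epididymis, was high on the same arrays as Aqp2. Intact genistein males read 5.10, 8.23 and 8.35, intact vehicle males 5.60, 5.67 and 5.02, castrated vehicle males 5.67, 5.77 and 5.97 and castrated genistein males 5.50, 5.32 and 6.59. Intact genistein arrays 2 and 3 stood above all others of the experiment. Aqp9 passed in no comparison, with castration differences of 0.37 (SE 0.68, adjusted p = 0.740) with vehicle and -1.42 (SE 0.68, adjusted p = 0.158) with genistein. The second value turned on the intact genistein arrays: it was -2.49 and passed (adjusted p = 0.000705) without array 1, and 0.70 (adjusted p = 0.344) without arrays 2 and 3. Without castrated genistein arrays 1 and 3 it was -1.90 (adjusted p = 0.299).

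The uneven pair recurred in the estradiol experiment. Aqp2 read 10.67, 6.06, 10.36, 10.36 and 5.42 with vehicle and 10.57, 10.92, 11.35 and 9.84 with estradiol. Aqp9 read 8.72, 5.35, 8.65, 9.04 and 5.91 with vehicle and 9.01, 8.64, 9.60 and 7.54 with estradiol. Vehicle arrays 2 and 5 were low in both genes, and the other 7 arrays were high in both. The estradiol difference was 2.09 (SE 1.11, adjusted p = 0.755) for Aqp2 and 1.16 (SE 0.80, adjusted p = 0.843) for Aqp9. Without vehicle arrays 2 and 5 these became 0.20 (adjusted p = 0.918) and -0.11 (adjusted p = 0.965).

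The genes most like Aqp2 over the 12 arrays of the genistein experiment were the serpin gene Serpina1f (r 0.976), the beta-defensin gene Defb43 (0.968) and the Kazal-type inhibitor gene Spink8 (0.961). Serpina1f read 6.22, 10.67 and 11.15 on intact genistein arrays 1 to 3, and 6.50 and 7.49 on vehicle arrays 2 and 5 of the estradiol experiment against 9.49 to 11.66 on the other 7. Without the 2 arrays farthest from the Aqp2 median r was 0.911, 0.897 and 0.740. On intact vehicle arrays 1 to 3, outside those arrays, Serpina1f read 7.16, 8.19 and 6.31 beside 5.73, 6.96 and 5.40 for Aqp2. Of the 8 markers listed for epididymis and vas deferens, 2 were tested, the lipocalins Lcn6 and Lcn8. Neither passed in any comparison. Their summed signal was 5.75 to 5.84 in intact genistein and 5.89 to 6.44 in intact vehicle males. It was 5.82 to 5.95 in castrated vehicle and 5.68 to 5.87 in castrated genistein males. In the estradiol experiment it was 5.95 to 6.55 with vehicle and 6.10 to 6.34 with estradiol. Their mean per array was 4.68 to 5.34 in the genistein experiment, where the lowest detected signal per array was 4.85 to 5.05. So near the detection limit these 2 genes can show little. The part of epididymis or vas deferens tissue in the Aqp2 values was not tested. Lcn5, Rnase9, Rnase10 and Adam7 were not kept by the filter.

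**Figure D3:**
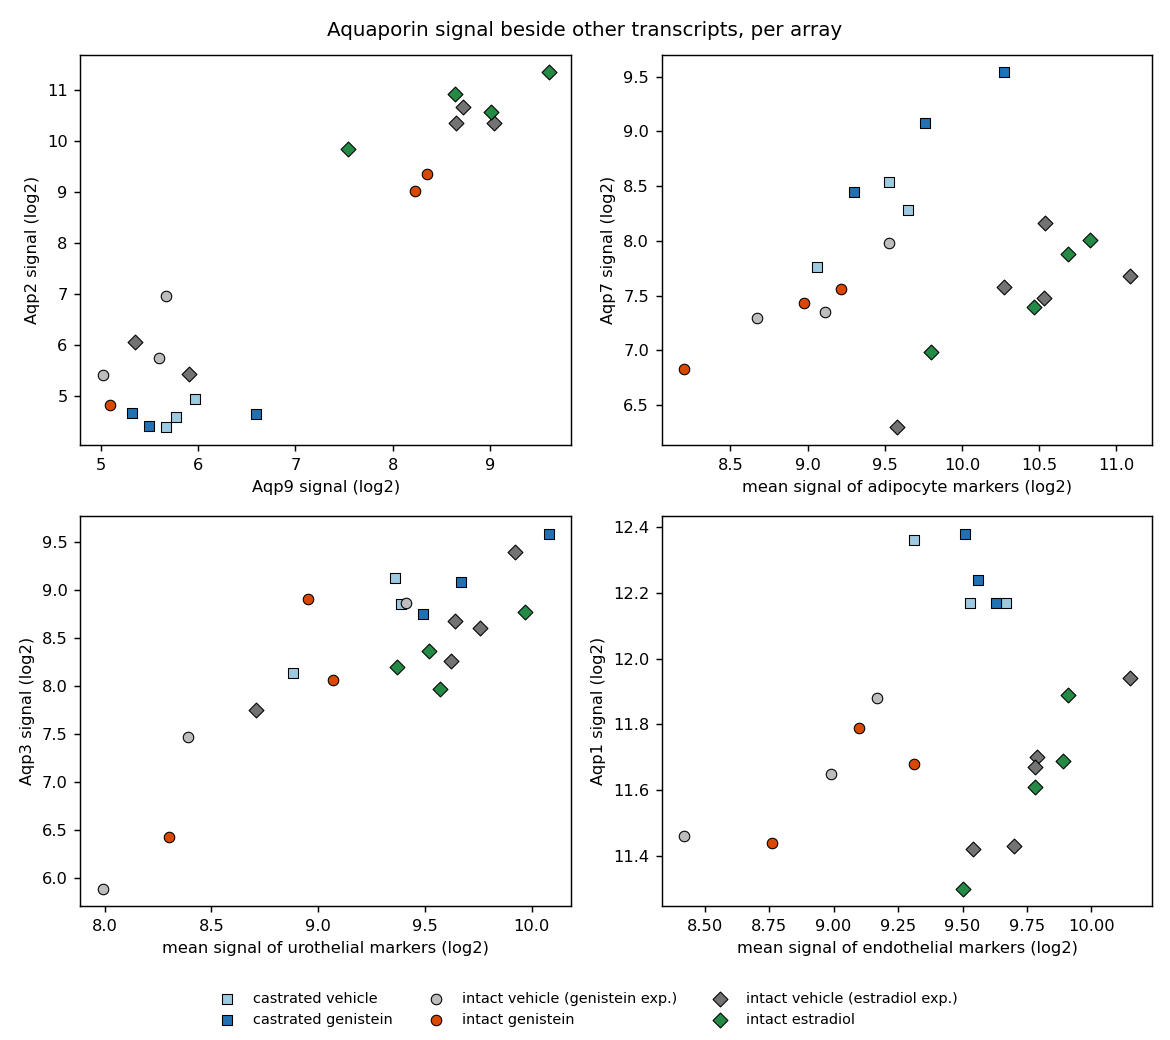
Per-array signals (log2) of Aqp2 against Aqp9, and of Aqp7, Aqp3 and Aqp1 against the mean of the tested adipocyte, urothelial and endothelial markers, by group; the 2 experiments were normalized separately and keep slightly different marker sets. High in both Aqp2 and Aqp9 are 2 of 3 intact genistein arrays and 7 of 9 arrays of the estradiol experiment.

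Aqp4, the water channel of astrocytes and muscle fibres, and Aqp11, an intracellular channel known for its need in the kidney proximal tubule, did not pass in any comparison. Aqp4 was dim in the genistein experiment, from 4.68 to 6.11, and was detected on 10 of 12 arrays. Its differences were 0.21 and 0.51 for castration with vehicle and with genistein (SE 0.28 each, adjusted p = 0.639 and 0.209). Aqp11 read 7.15, 7.52 and 7.92 in castrated vehicle, 8.14, 7.94 and 8.19 in castrated genistein, 7.59, 8.01 and 7.77 in intact vehicle and 7.26, 7.88 and 7.61 in intact genistein males. The castrated genistein arrays stood above the castrated vehicle and the intact genistein arrays, but with differences of 0.56 (SE 0.21, adjusted p = 0.434) and 0.51 (SE 0.21, adjusted p = 0.105).

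Genistein gave no limma call for any aquaporin in castrated males, nor for the 8 other aquaporins in intact males. In castrated males 0 of 9 passed, beside 0% of all genes; at an unadjusted p under 0.05 there were 2 (Aqp7, 0.83, and Aqp11, 0.56), beside 9.47% of all genes, and groups did not overlap for 1 (Aqp11), beside 17.5%. In intact males 0 of 8 passed, beside 0.00649% of all genes, and 1 of 8 (Aqp9, 1.80) had an unadjusted p under 0.05, beside 7.41%, while groups did not overlap for 0 of 8, beside 10.7%. Leaving out intact genistein array 1, which was low in both genes, Aqp2 differed by 3.15 (adjusted p = 0.00634) and Aqp9 by 2.86 (adjusted p = 0.00603). With arrays 2 and 3 left out instead, the differences were -1.21 for Aqp2 and -0.33 for Aqp9, with 1 array left in the group. Size and sign thus follow the arrays kept, and no genistein effect is read from these values. The difference between the genistein responses of intact and castrated males was called for 0 of 8, beside 0%, and 2 (Aqp7, -1.10, and Aqp11, -0.77) had an unadjusted p under 0.05, beside 7.28%.

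With estradiol 0 of 9 aquaporins passed the limma test, beside 0% of all 15088 genes tested in that experiment, and at an unadjusted p under 0.05 also 0, beside 6.92%. Groups overlapped for all 9, beside 2.82% of genes whose groups did not overlap. Outside Aqp2 and Aqp9, the differences lay between -0.21 for Aqp3 (SE 0.29) and 0.24 for Aqp4 (SE 0.34), each smaller than the SD of the vehicle arrays. Aqp1 differed by -0.01 (SE 0.16), Aqp5 by -0.08 (SE 0.29), Aqp7 by 0.13 (SE 0.34) and Aqp11 by 0.03 (SE 0.29). Within the chip that holds all 4 estradiol arrays and 2 vehicle arrays, and with chip as a block, 0 of 9 also passed.

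**Figure D4:**
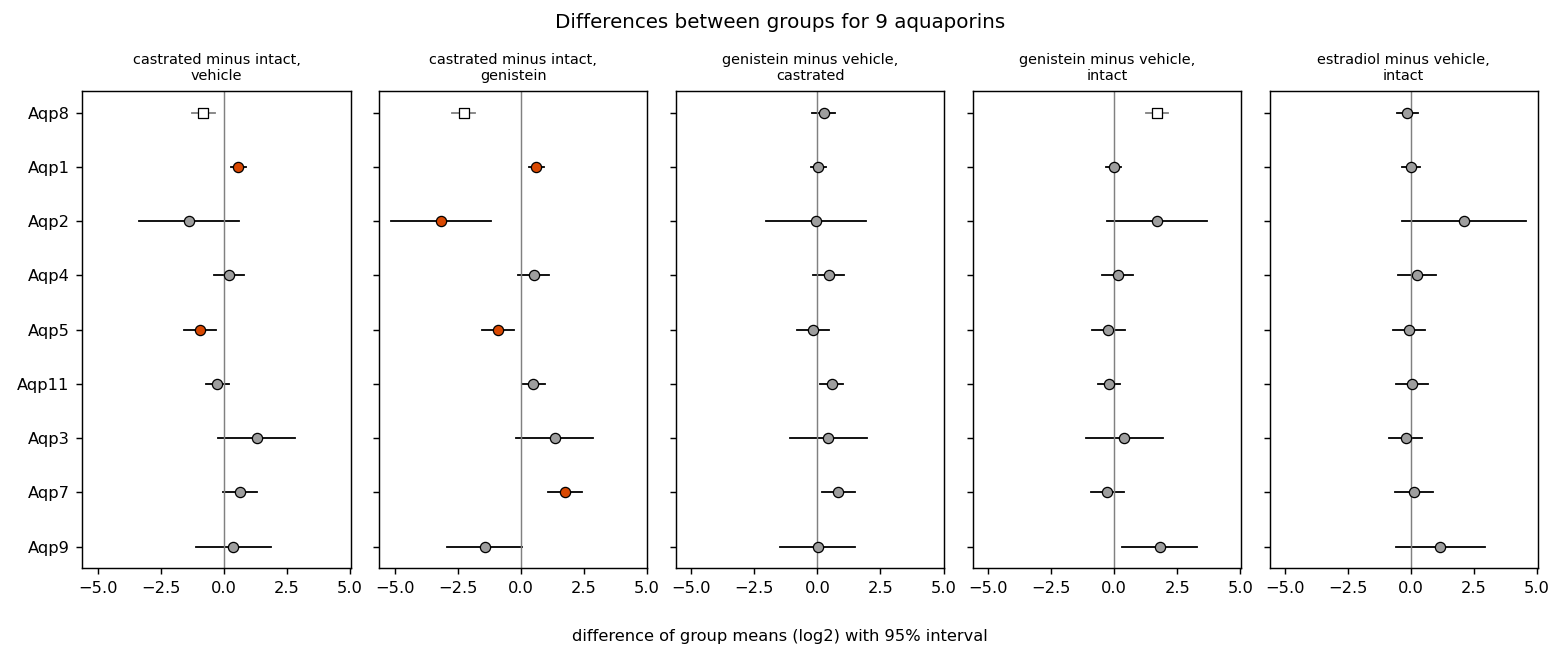
Differences of group means (log2, horizontal axis) with 95% intervals for 9 aquaporins in 5 comparisons; orange points passed an adjusted p of 0.05, grey points did not, and open squares are the Aqp8 values given without a test. Castrated and intact males differed in Aqp1 (0.57 and 0.63) and Aqp5 (-0.94 and -0.90) in both comparisons. Among males given genistein they also differed in Aqp2 (-3.16) and Aqp7 (1.75). Castration and chip coincide in these comparisons. Aqp2 met the detection filter through its intact arrays.

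The transport genes that set the gradients for water were followed through lists of epithelial ion transporters. Of 12 tested genes of chloride and bicarbonate secretion, 2 rose and 1 fell after castration with vehicle (median 0.07), beside 11.1% and 10.0% of all genes, and 3 rose and 3 fell with genistein (median -0.05), beside 11.2% and 10.9%. The carbonic anhydrase Car2 rose by 2.70 (SE 0.17, adjusted p = 2.6e-06) and 2.34, and the bicarbonate cotransporter Slc4a4 by 1.14 and 1.39. The calcium-activated chloride channel Ano1 fell (-0.79 and -1.08), and the chloride-bicarbonate exchanger Slc26a3 fell with genistein (-1.21). Without castrated genistein arrays 1 and 3 the differences were 2.21 for Car2, 1.15 for Slc4a4, -1.11 for Ano1 and -1.0 for Slc26a3. Cftr, the chloride channel of many fluid-secreting epithelia, was not kept by the filter.

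Of 14 tested genes of sodium uptake and the sodium pump, 1 rose and 3 fell with vehicle (median -0.22), beside 11.1% and 10.0% of all genes. With genistein 0 rose and 7 fell (median -0.81), beside 11.2% and 10.9%. Without castrated genistein arrays 1 and 3 the median was -0.53, and Slc5a1 differed by -1.32. The epithelial sodium channel subunit Scnn1a fell (differences of -1.60 with vehicle and -1.74 with genistein), as did the sodium-glucose cotransporter Slc5a1 (-1.30 and -1.41) and, with genistein, the sodium-proton exchanger Slc9a3 (-1.66), while the subunit Scnn1g rose by 1.01 with vehicle. Of 9 tested genes of vasopressin and cAMP signalling, 2 rose in either comparison, beside 11.1% and 11.2% of all genes higher. They were the vasopressin receptor Avpr1a (1.40 and 1.29) and the adenylate cyclase Adcy3 (1.23 and 1.84). Without castrated genistein arrays 1 and 3 Avpr1a differed by 1.62 and Adcy3 by 1.72. Avpr2, the receptor that moves Aqp2 to the membrane in kidney, was not kept in the genistein experiment.

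Of 12 tested genes of hydrogen peroxide handling, catalase (Cat) rose by 0.91 and 1.13 and the secreted glutathione peroxidase Gpx3 fell (-2.06 and -1.98) after castration with vehicle and with genistein, and thioredoxin (Txn1) fell by 0.49 with genistein. Thus 1 rose and 1 fell with vehicle, beside 11.1% and 10.0% of all genes, and 1 rose and 2 fell with genistein, beside 11.2% and 10.9%. Without castrated genistein arrays 1 and 3 Gpx3 differed by -2.39, Cat by 0.78 and Txn1 by -0.51. Genistein in castrated males, genistein in intact males and estradiol called no tested gene of these 4 lists or of the glycerol list. Over all genes 0%, 0.00649% and 0% were called, so these counts say little about the lists. The median change of these lists under genistein in intact males lay between -0.04 and 0.09, beside a median of 0.00 over all genes. In castrated males it lay between -0.18 for chloride and bicarbonate secretion and 0.62 for the glycerol list, beside 0.00, and with estradiol between -0.05 and 0.11, beside 0.01.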

How the data were processed

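Transcripts were measured in mouse prostate RNA on Illumina bead arrays. The authors deposited, for each experiment, average bead intensity values and a detection p-value per probe, per the file headers; the values show the intensities to be linear and not normalized. BeadStudio is named, without a version, per the submitters' processing notes; the sources used here do not give how the detection p-values were made. A further deposited table of processed intensity values served as an alternative.

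In R 4.3.3 with limma 3.58.1, neqc (background from the detection p-values, normexp, offset 16, quantile normalization, log2) was run within each experiment. A probe stayed (22332 and 21835) if at least 3 arrays had a detection p-value under 0.05 for it, and the brightest stood for a gene. limma's lmFit and eBayes were fitted to 4 group means over 12 arrays and to 2 over 9 (two-sided, Benjamini-Hochberg over all 15406 or 15088 genes, threshold 0.05; steps were tested on simulated data). The number of arrays and signal over background limit precision. By the labels the arrays lie on 5 chips. Symbols were matched by gene ID for 9 of 9 genes, and 0 columns belonged to an unknown sample.

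The members, gene lists and tests were chosen with earlier results of these data known. The genes named are the members, up to 4 called genes per list and comparison together with markers that define a cell type, and the 5 (Aqp8) or 3 genes most correlated with a member. A list is described by its counts, beside the shares of all genes called, and its median, beside that of all genes (medians 0.04, 0.04, 0.00, 0.00, 0.01 and 0.01 for castration with vehicle and with genistein, genistein in castrated and in intact males, their difference, and estradiol).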

Additional observations from a re-analysis of the deposited data

Results flagged for a closer look

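Aqp9 drew a closer look because its castrated arrays lay on opposite sides of the intact mean with the 2 injections, although neither castration difference passed the limma test (0.37, adjusted p = 0.740, and -1.42, adjusted p = 0.158). All 3 castrated vehicle arrays (5.67, 5.77 and 5.97) lay above the mean of the intact vehicle arrays (5.43), and all 3 castrated genistein arrays (5.50, 5.32 and 6.59) lay below the mean of the intact genistein arrays (7.23). The gap between these effects was 1.796 log2 units (SE 0.96). The interaction term of the limma fit did not call it (adjusted p = 0.723), and the intact genistein mean rests on arrays 2 and 3, without which the castration difference with genistein was 0.70 (adjusted p = 0.344). Without intact genistein array 1 it was -2.49 and passed (adjusted p = 0.000705). Within groups of 4 or 5 arrays, 18 sets of member values were checked for a single outlying array, and 0 were found.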

How the results depend on the processing

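The Aqp8 difference between genistein and vehicle in intact males was 1.25 with a background offset of 50 and 1.52 to 1.90 when 1 array at a time was left out, a description of the arrays that chose the gene. For genistein in castrated males and estradiol in intact males no alternative gave a call of Aqp8 (differences of -0.05 to 0.39 and -0.28 to 0.06). The count of aquaporins changed by castration with vehicle (2) was 1 without a filter on dim probes, 1 with the replicate block and 0 to 2 when 1 array was left out. With only the arrays compared it was 3, including Aqp2. Aqp2 met the detection filter through its intact arrays, so its call is no independent support for a fall. With genistein the count (4) was 2 without a filter, 2 with only the arrays compared, 0 without castrated genistein arrays 1 and 3, 2 (Aqp5 and Aqp7) without intact genistein arrays 2 and 3, an alternative chosen after seeing the data, and 2 to 4 when 1 array was left out. Among intact males the count of other aquaporins changed by genistein (0) was 2, Aqp2 and Aqp9, without intact genistein array 1, and 0 to 2 over the arrays left out. The cause of these shifts was not tested, beyond there being fewer arrays or more genes tested. The other counts stayed at 0. Of 716 recomputed single values of members other than Aqp8, 682 kept their call, 30 lost one, 4 gained one and 0 reversed, while 57 values never called changed sign. Replicate numbers did not pair the arrays: deviations of same-numbered arrays correlated at -0.28 to 0.34, and the replicate block otherwise left 3 of the 4 calls with genistein and changed no other count. Aqp8 with vehicle, Aqp2 in castrated males and Aqp4 lie near background, where signal limits what can be seen.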
